A study of Mus musculus with 6 samples.

Results

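The Bcl2 family decides whether a cell keeps its mitochondria intact or commits to apoptosis. Its pro-survival members (Bcl2, Bcl2l1 encoding Bcl-xL, Mcl1, and Bcl2a1 encoding A1/Bfl-1) hold the pore-forming effectors Bax and Bak1 in check. BH3-only members such as Bcl2l11 (Bim) and Bbc3 (Puma) bind the pro-survival proteins and set the effectors free. A1 is best known from blood cells, where NF-kB drives its transcription, and the mouse carries several near-identical copies of the gene.

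Of the 17469 genes in the count table, 10 were examined here: Bcl2a1a (Entrez 12044), Bcl2a1b (12045), Bcl2a1d (12047), Bcl2 (12043), Bcl2l1 (12048), Mcl1 (17210), Bcl2l11 (12125), Bax (12028), Bak1 (12018) and Bbc3 (170770). They were picked by symbol, and all 10 were in the table and had enough counts for the test, which covered 12701 genes. The family was chosen by its measured values, since the large difference of Bcl2a1a between these same genotypes was known when the list was drawn up. For this reason the members' levels and fold changes are given as a description, with no p-value.

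RNA-seq was performed on tdTomato+ BMSCs, adherent cells of cultured bone marrow, sorted as OB (osteoblast) progenitors. All mice were 6 months old and untreated. They carried Ocn-Cre (Cre under the osteocalcin promoter) and the Ai9 allele, which makes tdTomato once Cre has removed a stop cassette. The 3 libraries of Ocn-Cre;Ai9 mice are called control here. The 3 libraries of TgAPPswe;Ocn-Cre;Ai9 mice, called TgAPPswe here, also carried human APP with the Swedish mutation, made from the CAG promoter after the same Cre step. The number of mice behind each library is not given in the sources used here, so the p-values measure the spread between libraries, which may be technical.

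Estimated counts summed to between 19340810 and 22037840 per library. The limit of detection was set at 3 counts, that is 0.136 to 0.155 CPM (each count divided by its library's total), for counting error alone. Mouse App, the only App row in the table, was 279 ± 3.50 FPKM in control and 330 ± 4.18 FPKM in TgAPPswe libraries (mean ± SD, n = 3 each). FPKM is the number of fragments scaled by gene length and by library size. Markers of macrophages were abundant in these sorted cells, with the 15 marker genes summing to 26310 to 28077 FPKM in control and 17779 to 21753 FPKM in TgAPPswe libraries. The 15 stromal and osteoblast markers summed to 220 to 265 and 171 to 242 FPKM, and Bglap, which encodes osteocalcin, was at 1.25 FPKM or less in every library.

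The Bcl2a1 copies lie close together on mouse chromosome 9 (GRCm38, the build called mm10 in the submitters' processing notes). GENCODE M21 places Bcl2a1d at chr9:88723285-88731914 on the minus strand, Bcl2a1a at chr9:88956900-88962419 on the plus strand and Bcl2a1b at chr9:89199209-89207827 on the plus strand. Another copy outside the list, Bcl2a1c, lies farther along the chromosome at chr9:114330135-114330578. The coding sequences of Bcl2a1a, Bcl2a1b and Bcl2a1d are each 516 bases long. Bcl2a1a and Bcl2a1b differ at 11 of these bases (97.9% identity), Bcl2a1a and Bcl2a1d at 7 (98.6%), and Bcl2a1b and Bcl2a1d at 6 (98.8%).

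The first 60 coding bases are shown because they hold the densest run of differences, and capitals mark the 6 positions at which the 4 copies are not all alike (GENCODE M21, GRCm38, each on the strand of its gene, chr9:88957051-88957110 for Bcl2a1a, chr9:89199360-89199419 for Bcl2a1b, chr9:88731660-88731719 for Bcl2a1d and chr9:114330156-114330215 for Bcl2a1c).
Bcl2a1a: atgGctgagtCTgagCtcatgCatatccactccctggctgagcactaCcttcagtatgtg
Bcl2a1b: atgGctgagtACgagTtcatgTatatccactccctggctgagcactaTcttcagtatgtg
Bcl2a1d: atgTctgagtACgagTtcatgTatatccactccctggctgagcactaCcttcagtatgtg
Bcl2a1c: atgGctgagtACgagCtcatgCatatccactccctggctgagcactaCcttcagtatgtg

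Counted from 1 at the first base of the start codon, C11A, T12C, C16T and C22T set Bcl2a1a apart from both Bcl2a1b and Bcl2a1d, with the Bcl2a1a base written first. Only G4T, again from Bcl2a1a, is particular to Bcl2a1d within these 60 bases. Coding bases 301 to 420 are shown as a second stretch, since they hold 4 further positions where the 3 copies are not all alike, marked by capitals (chr9:88957351-88957470, chr9:89199660-89199779 and chr9:88731300-88731419).
Bcl2a1a: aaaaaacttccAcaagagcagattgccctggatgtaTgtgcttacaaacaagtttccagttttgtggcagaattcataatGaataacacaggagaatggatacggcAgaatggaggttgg
Bcl2a1b: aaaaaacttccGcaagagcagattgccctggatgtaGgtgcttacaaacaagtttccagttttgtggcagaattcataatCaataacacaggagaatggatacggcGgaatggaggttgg
Bcl2a1d: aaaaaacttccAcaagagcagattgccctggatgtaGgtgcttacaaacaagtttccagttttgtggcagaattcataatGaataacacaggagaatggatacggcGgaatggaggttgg

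Reads from the copies could therefore often be placed on more than one of them. Of all windows of 100 bases in the GENCODE transcripts, 43.5% of those of Bcl2a1a, 31.1% of those of Bcl2a1b and 54.7% of those of Bcl2a1d occurred unchanged in another copy. For Bcl2a1c the share was 0%. With windows of 150 bases the shares of the 3 members were 28.2%, 14.2% and 30.3%. With windows of 50 bases they were 69.0%, 57.6% and 79.5%, and 10.4% for Bcl2a1c. The read length of these libraries is not given in the sources used here.

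The upstream stretches of the 3 copies are printed next, because the copies with the largest and the smallest difference between the genotypes have the same letters there. They are taken from RefSeq promoter windows (GRCm38), end before the annotated start of each gene, and cover chr9:88956736-88956855 for Bcl2a1a, chr9:89199045-89199164 for Bcl2a1b and chr9:88731915-88732028 for Bcl2a1d. Capitals mark the 6 bases that Bcl2a1d lacks.
Bcl2a1a: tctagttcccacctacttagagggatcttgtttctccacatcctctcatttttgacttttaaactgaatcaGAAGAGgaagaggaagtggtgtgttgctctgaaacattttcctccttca
Bcl2a1b: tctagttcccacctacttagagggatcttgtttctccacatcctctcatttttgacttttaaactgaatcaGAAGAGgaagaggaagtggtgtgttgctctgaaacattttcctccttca
Bcl2a1d: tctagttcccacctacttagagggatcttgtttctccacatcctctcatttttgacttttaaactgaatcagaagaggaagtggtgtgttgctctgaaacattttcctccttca

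Each stretch holds TGANTCA once and GAGGAAGT once. In Bcl2a1a and Bcl2a1b they are 9 bases apart and in Bcl2a1d 3 bases apart, so that the motifs do not overlap. Searched on both strands, TGANTCA, the letters of an AP-1 element, occurred in 7.81% of all 32851 RefSeq promoter windows of 300 bases. GAGGAAGT, a purine-rich core of the kind bound by ETS factors such as PU.1, occurred in 3.20% of them. The window of Bcl2a1c holds GAGGAAGT but not TGANTCA. Among the other members GAGGAAGT was found in the window of Bak1, the NF-kB consensus (in 4.51% of all windows) in 1 of 3 windows of Bcl2l1 and 1 of 3 of Bbc3, and the p53 half-site (8.36%) in the window of Bax. The NF-kB consensus was not matched in the window of any of the 4 Bcl2a1 copies, which says only that these letters are not in this stretch. These are matches of letters and do not show that a factor binds.

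Bcl2a1a was nearly silent in control and abundant in TgAPPswe libraries. It had 1.54, 1.58 and 1.2 FPKM in control libraries 1, 2 and 3, and 149, 160 and 154 FPKM in TgAPPswe libraries 1, 2 and 3. The genotypes lay far apart, and the TgAPPswe libraries were tightly grouped. The log2 fold change was 6.94 (SE 0.0936, and 0.200 by DESeq2), a 122-fold difference. Estimated counts were 16.8 to 22.7 in control libraries and 2387 to 2547 in TgAPPswe libraries. Since RNA was taken from a bulk of sorted cells, a change in the number of cells that make a transcript and a change in its amount per cell cannot be told apart here.

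Bcl2a1d had 6.38, 8.66 and 7.35 FPKM in the control libraries and 265, 217 and 247 FPKM in the TgAPPswe libraries. No control library came near a TgAPPswe library, and the log2 fold change was 5.24 (SE 0.133). Bcl2a1b, in contrast, was already well expressed in control cells, with 123, 169 and 145 FPKM. In TgAPPswe libraries it had 500, 437 and 461 FPKM, without overlap and with a log2 fold change of 1.89 (SE 0.116), or 3.72-fold. Bcl2a1b was the highest of the 3 copies in all 6 libraries.

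Because reads shared by the copies were divided among them, the copies were also added up. The sum of Bcl2a1a, Bcl2a1b and Bcl2a1d was 131, 179 and 153 FPKM in the control libraries and 914, 814 and 861 FPKM in the TgAPPswe libraries. The genotypes again did not overlap. The sum was 155 ± 23.9 FPKM in control and 863 ± 49.7 FPKM in TgAPPswe libraries (mean ± SD, n = 3 each), and the log2 fold change of the summed counts was 2.72 (SE 0.116), a 6.61-fold difference. Adding Bcl2a1c, an alternative chosen after the counts were seen, gave the same 2.72 (SE 0.115).

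**Figure D1:**
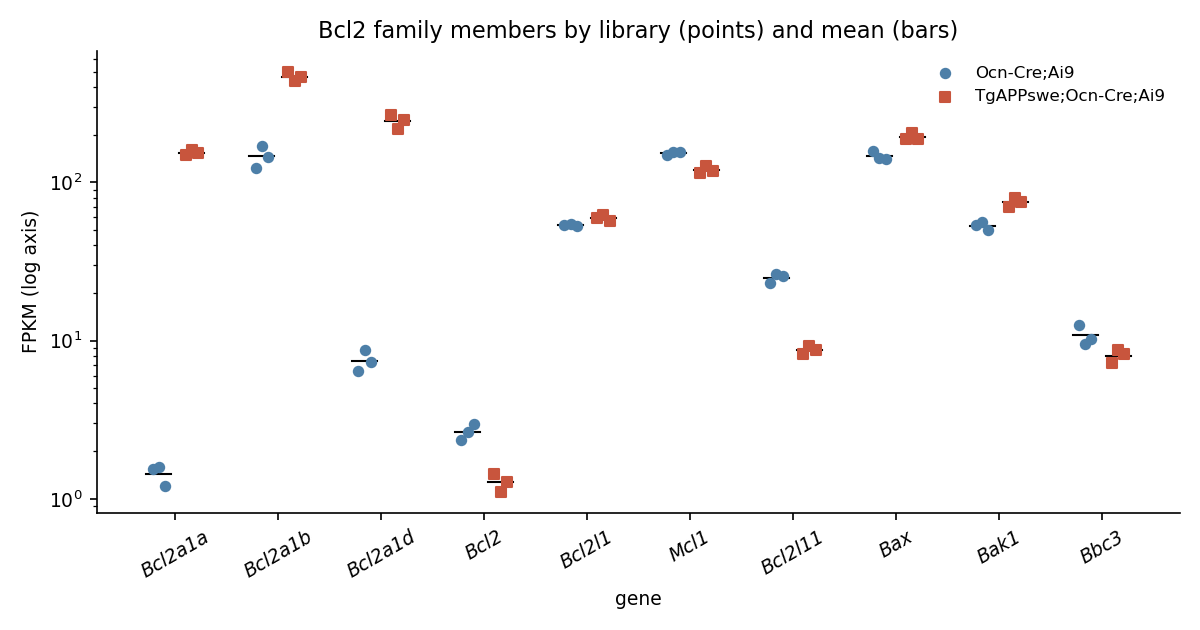
FPKM of the 10 members on a log axis, with 1 point per library (circles, 3 control; squares, 3 TgAPPswe) and a bar at each mean. Bcl2a1a went from 1.44 to 154 FPKM on average and Bcl2a1d from 7.46 to 243 FPKM, while Mcl1, Bcl2l1 and Bax stayed within the same order of magnitude.

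The division among the copies left a trace in the table. The estimated counts of each of Bcl2a1a, Bcl2a1b and Bcl2a1d were fractional in all 6 libraries. Yet the 4 copies with Bcl2a1c added up to a whole number within 0.01 counts in every library, from 1819 to 2494 in control and from 12783 to 14472 in TgAPPswe libraries. The 3 copies without Bcl2a1c missed a whole number by 0.01 to 0.02 counts in control and by 0.05 to 0.41 counts in TgAPPswe libraries. Within 0.01 counts, the 4 copies together left no fraction of a read over for another gene.

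The make-up of the pool also differed between the genotypes. Bcl2a1b held 92.3% to 93.1% of the counts of the 4 copies in control libraries and 51.8% to 52.9% in TgAPPswe libraries. Bcl2a1d went from between 4.93% and 4.99% to between 27.0% and 29.3%, and Bcl2a1a from between 0.804% and 1.21% to between 16.5% and 19.9%. Bcl2a1c kept a small part, 1.002% to 1.54% in control and 1.12% to 1.26% in TgAPPswe libraries, with overlapping ranges. These shares are estimates of the authors' quantification, and the share of Bcl2a1a in control rests on at most 22.7 counts per library.

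**Figure D2:**
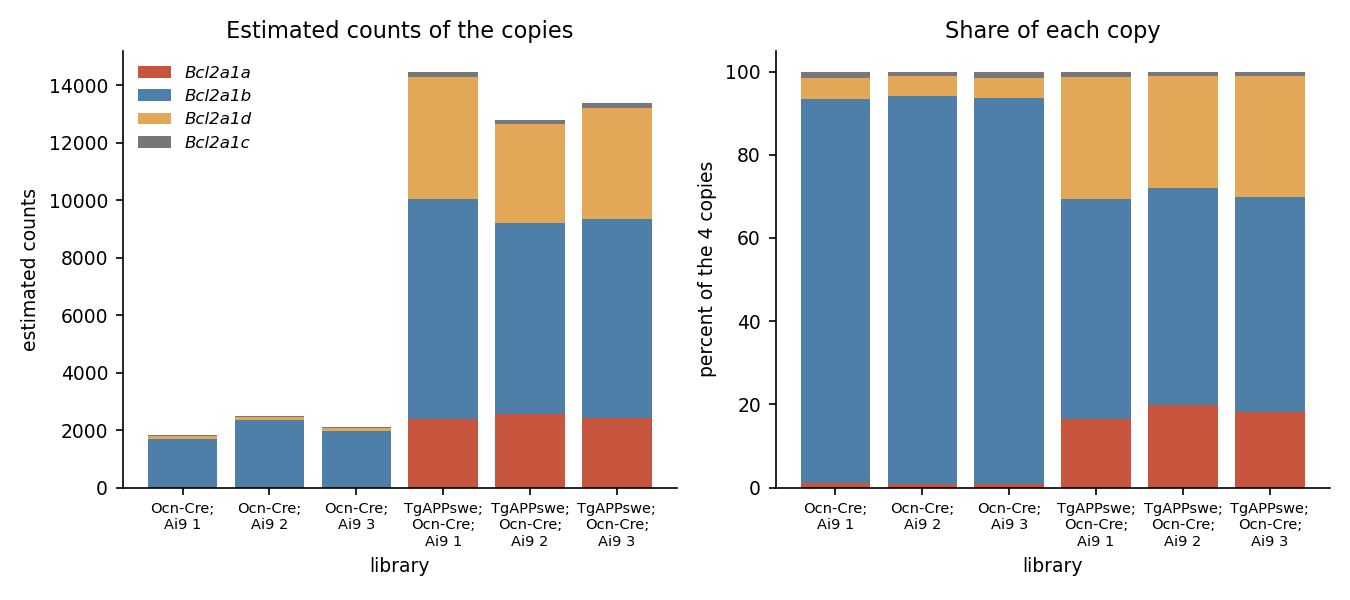
Estimated counts of the 4 Bcl2a1 copies per library, stacked (left), and the share of each copy in their total in percent (right). All 3 TgAPPswe libraries hold at least 12783 counts against at most 2494 in control, and Bcl2a1b goes from at least 92.3% to at most 52.9% of the total.

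The other pro-survival members differed less than the Bcl2a1 copies. Mcl1, the short-lived survival protein of many blood cells, had 148, 155 and 155 FPKM in control and 114, 126 and 117 FPKM in TgAPPswe libraries. Every TgAPPswe library was below every control library, although the log2 fold change was small, at -0.14 (SE 0.0547). Bcl2l1 had 54.0, 54.6 and 52.6 FPKM in control and 59.4, 61.7 and 57.3 FPKM in TgAPPswe libraries, slightly higher and without overlap (log2 fold change 0.36, SE 0.0527). Bcl2 itself was the least abundant pro-survival gene in TgAPPswe libraries and second to Bcl2a1a from the bottom in control, with 2.34, 2.66 and 2.97 FPKM in control and 1.43, 1.11 and 1.28 FPKM in TgAPPswe libraries. Its level was lower in every TgAPPswe library (log2 fold change -0.87, SE 0.131).

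Both effectors were higher in TgAPPswe libraries. Bax had 158, 143 and 141 FPKM in control and 189, 204 and 187 FPKM in TgAPPswe libraries, a log2 fold change of 0.61 (SE 0.0649). Bak1 had 53.7, 56.1 and 49.8 FPKM in control and 69.8, 80.0 and 74.7 FPKM in TgAPPswe libraries, a log2 fold change of 0.71 (SE 0.0656). Neither gene overlapped between the genotypes.

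The BH3-only members are Bcl2l11 and Bbc3. Bcl2l11, whose product Bim can bind every pro-survival protein of the family, had 23.0, 26.3 and 25.7 FPKM in control and 8.23, 9.23 and 8.72 FPKM in TgAPPswe libraries. The genotypes were well separated, with a log2 fold change of -1.34 (SE 0.0679). Bbc3, a target of p53, had 12.6, 9.56 and 10.2 FPKM in control and 7.19, 8.70 and 8.22 FPKM in TgAPPswe libraries. The gap between the nearest libraries of Bbc3 was narrow in FPKM, and in TMM-scaled CPM the genotypes overlapped (16.2 to 20.9 CPM in control and 14.4 to 16.6 CPM in TgAPPswe libraries). The log2 fold change of Bbc3 was -0.21 (SE 0.112).

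Counts of Bcl2l11 were fractional in 5 libraries, and the fractions were complementary to those of 1 other gene within 0.02 counts, Acoxl, which lies next to it on chromosome 2 (Acoxl at chr2:127838876-128123873 and Bcl2l11 at chr2:128126038-128162547). Acoxl held 10.3 counts or fewer in every library, against 897 ± 61.6 and 2356 ± 142 for Bcl2l11 in TgAPPswe and control libraries. Counts of Bcl2l1 were fractional in all 6 libraries, with no single partner found. The remaining members, Bcl2, Mcl1, Bax, Bak1 and Bbc3, had whole counts throughout.

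Among all tested genes, 1130 (8.90%) were called up and 1169 (9.20%) down by edgeR's quasi-likelihood test. A call needed an adjusted p of 0.05 or less and a log2 fold change beyond 1 or -1. Scaled by library size only, 846 were called up and 1732 down. Of the 10 members, Bcl2a1a, Bcl2a1b and Bcl2a1d were among those called up and Bcl2l11 among those called down. By the adjusted p alone, called genes included, 32.5% of all tested genes were higher and 31.5% lower. This held for 3 further members that were higher (Bcl2l1, Bax and Bak1) and 2 that were lower (Bcl2 and Mcl1). For the lists below, by contrast, the numbers given as passing by the adjusted p alone leave out the called genes. In FPKM, 24.0% of tested genes were higher in every TgAPPswe library than in any control library and 48.3% were lower, against 6 and 4 of the 10 members. Because the members were chosen on this comparison, nothing is read from these counts.

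Within a genotype the members varied little from library to library. The coefficient of variation of FPKM ran from 1.91% to 15.6% in control and from 3.66% to 12.6% in TgAPPswe libraries, with Bcl2a1b the most variable member in control and Bcl2 in TgAPPswe. In control the order by mean FPKM was Mcl1, Bax, Bcl2a1b, Bcl2l1, Bak1, Bcl2l11, Bbc3, Bcl2a1d, Bcl2 and Bcl2a1a. Mcl1 and Bax, Bax and Bcl2a1b, and Bcl2l1 and Bak1 could not be ordered, since their libraries overlapped. In TgAPPswe libraries the order was Bcl2a1b, Bcl2a1d, Bax, Bcl2a1a, Mcl1, Bak1, Bcl2l1, Bcl2l11, Bbc3 and Bcl2, and the only neighbours that overlapped were Bcl2l11 and Bbc3. By mean FPKM the Bcl2a1 copies thus took ranks 1, 2 and 4 in TgAPPswe libraries and ranks 3, 8 and 10 in control. Rank 3 is not settled, since the control libraries of Bcl2a1b overlapped those of both Mcl1 and Bax.

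These levels were then compared by role, on the FPKM scale, which is per length. The pro-survival members together (the 3 Bcl2a1 copies, Bcl2, Bcl2l1 and Mcl1) summed to 336, 392 and 364 FPKM in control and 1088, 1004 and 1037 FPKM in TgAPPswe libraries, or 2.87 times as much on average. Without the Bcl2a1 copies the sum was 204 to 213 FPKM in control and 175 to 189 FPKM in TgAPPswe libraries. This gap depended on the scaling. With FPKM scaled by TMM, an alternative chosen after the FPKM sums were seen, the sum was 191 to 197 in control and 188 to 200.3 in TgAPPswe libraries, which overlapped. On that scale all pro-survival members together were 3.33 times as high in TgAPPswe libraries. The Bcl2a1 copies made up 39.1% to 45.7% of the pro-survival FPKM in control, close to the share of Mcl1 (39.7% to 44.1%). In TgAPPswe libraries they made up 81.1% to 83.9%, and Mcl1 10.5% to 12.6%.

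Bax and Bak1 summed to 200 ± 10.3 FPKM in control and 268 ± 13.9 FPKM in TgAPPswe libraries (mean ± SD, n = 3 each). The ratio of pro-survival to effector FPKM was 1.59, 1.97 and 1.91 in control libraries and 4.21, 3.53 and 3.96 in TgAPPswe libraries. Without the Bcl2a1 copies the order of the genotypes turned round. That ratio was 0.967, 1.07 and 1.10 in control and 0.675, 0.666 and 0.671 in TgAPPswe libraries.

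Bcl2l11 and Bbc3 summed to 35.5 to 35.9 FPKM in control and 15.4 to 17.9 FPKM in TgAPPswe libraries. The pro-survival members exceeded them 9.45 to 10.9 times in control and 56.0 to 70.6 times in TgAPPswe libraries, or 5.75 to 5.93 times and 10.4 to 11.3 times without the Bcl2a1 copies. The ratio of Mcl1 to Bcl2l11 alone was 5.91 to 6.44 in control and 13.4 to 13.8 in TgAPPswe libraries. These are ratios of transcripts and say nothing of protein.

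**Figure D3:**
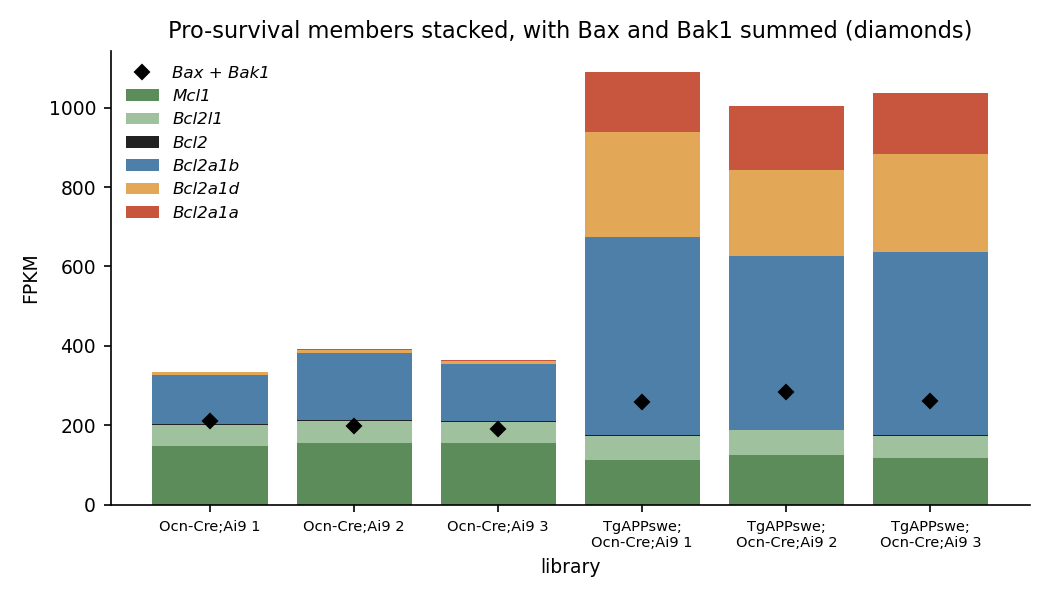
FPKM of the pro-survival members stacked for each of the 6 libraries, with the sum of Bax and Bak1 as diamonds. The TgAPPswe stacks reach 1004 to 1088 FPKM against 336 to 392 in control, and the Bcl2a1 copies form 81.1% to 83.9% of them.

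A list of 18 further Bcl2 family genes held 17 genes of the table, of which 14 were tested. 2 rose, 2 fell, 5 more were higher and 2 more lower by the adjusted p alone, and 3 did not pass. Their median log2 fold change was 0.18, against -0.02 for all tested genes. Bcl2a1c, the other A1 copy, had 3.83, 3.38 and 4.14 FPKM in control and 22.2, 17.5 and 18.7 FPKM in TgAPPswe libraries (log2 fold change 2.57, SE 0.180). It is among the 2 that rose. Its counts were fractional in 5 libraries and add up to whole numbers with those of the members, so its value is given as a description.

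The BH3-only genes of that list went in both directions. Bmf, which encodes a BH3-only protein tied to the cytoskeleton, had 10.1, 9.62 and 10.3 FPKM in control and 2.07, 2.48 and 2.19 FPKM in TgAPPswe libraries (log2 fold change -1.94, SE 0.0769, edgeR adjusted p = 2.5e-07). Pmaip1 (Noxa), which binds Mcl1 and A1, had 5.99, 6.67 and 6.91 FPKM in control and 9.23, 11.8 and 9.97 FPKM in TgAPPswe libraries, higher without overlap by the adjusted p alone (log2 fold change 0.88, SE 0.0963, edgeR adjusted p = 7.0e-05). Bad was also higher by the adjusted p alone (log2 fold change 0.25, SE 0.0699, edgeR adjusted p = 0.0129), with overlapping FPKM. Pmaip1 and Bad were named after their values were seen. Bik, another BH3-only gene, was near the limit of detection, with 0.47, 0.52 and 0.06 FPKM in control and 0.99, 0.84 and 0.69 FPKM in TgAPPswe libraries (log2 fold change 1.45, SE 0.533, edgeR adjusted p = 0.0401). Its call ended when any library except control library 2 was left out, with adjusted p-values of 0.0509 to 0.101. Bok, a relative of the effectors, fell from 2.11 ± 0.215 to 0.677 ± 0.0902 FPKM (mean ± SD, n = 3 each), a log2 fold change of -1.43 (SE 0.207, edgeR adjusted p = 3.6e-04).

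**Figure D4:**
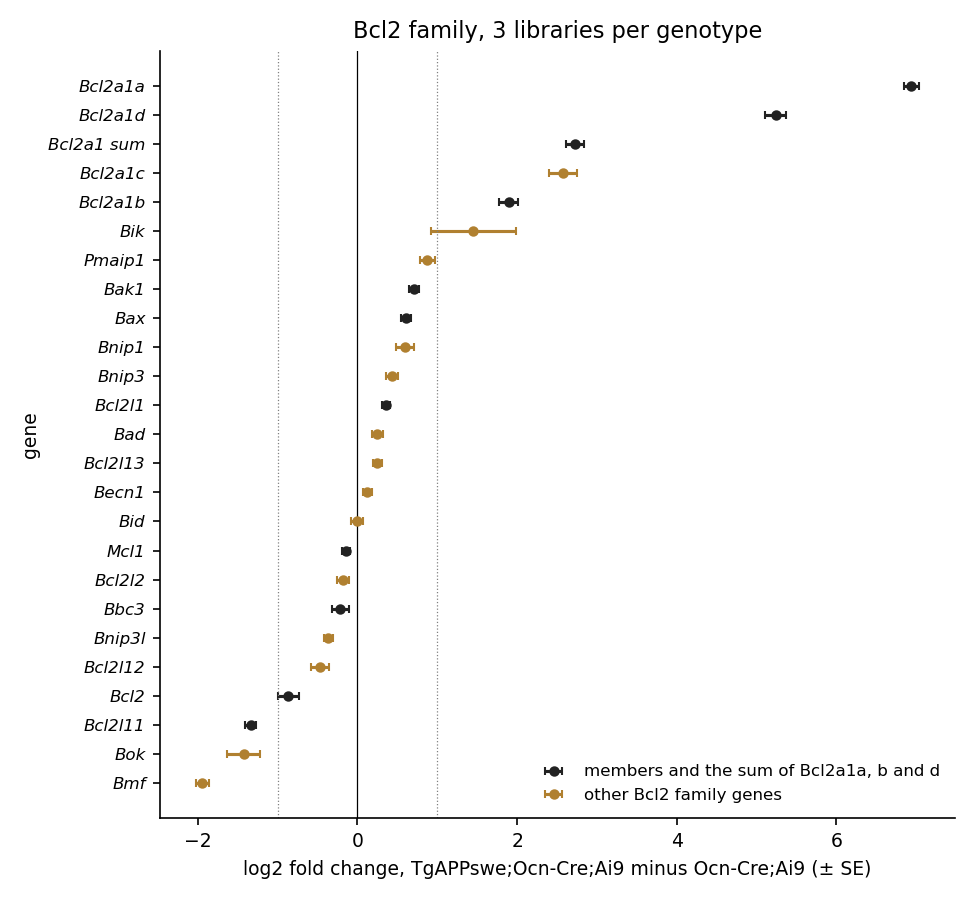
Log2 fold change (TgAPPswe minus control, ± SE) of the 10 members and the Bcl2a1 sum (black) and of 14 other Bcl2 family genes (brown), ordered by size, with dotted lines at the threshold of 1. The 4 Bcl2a1 copies stand at 1.89 or above, Bcl2l11, Bok and Bmf lie below -1, and Bik, the remaining gene past 1, has an SE of 0.533.

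Downstream of the effectors, cytochrome c builds the apoptosome that activates the caspases. Of 17 genes of caspases and the apoptosome, all tested, 1 rose, 2 fell, 8 and 5 passed by the adjusted p alone in the upward and downward direction, and 1 did not pass. Their median log2 fold change was 0.15. Cycs, which encodes cytochrome c, rose from 23.9 ± 0.424 to 55.4 ± 3.03 FPKM (log2 fold change 1.43, SE 0.0655, adjusted p = 5.1e-07). Casp2, an initiator caspase, fell from 12.2 ± 0.894 to 4.69 ± 0.514 FPKM (log2 fold change -1.16, SE 0.0890, adjusted p = 8.6e-06). Dffb, the nuclease that cuts DNA in apoptosis, fell from 2.80 ± 0.392 to 0.983 ± 0.315 FPKM (log2 fold change -1.32, SE 0.250, adjusted p = 0.00167).

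Of 10 genes, members of the inhibitor of apoptosis protein family and Cflar, all tested, 2 rose and 2 fell. By the adjusted p alone 3 more were higher and 2 lower, and 1 did not pass, with a median log2 fold change of 0.17. Cflar, which encodes the caspase-8 inhibitor FLIP, rose from 17.0 ± 0.563 to 60.4 ± 2.28 FPKM (log2 fold change 1.93, SE 0.0592, adjusted p = 8.3e-08). Birc3, which encodes the ubiquitin ligase cIAP2, rose from 22.9 ± 0.935 to 74.1 ± 5.86 FPKM (log2 fold change 1.89, SE 0.0787, adjusted p = 3.1e-07). Both are known targets of NF-kB, as is Bcl2a1, and a part of NF-kB in these differences was not tested. Birc5 (survivin), a gene of dividing cells, fell from 31.4 ± 1.26 to 11.1 ± 2.22 FPKM (log2 fold change -1.38, SE 0.107, adjusted p = 9.0e-06). Naip1 was under 0.3 FPKM in all libraries and called down (log2 fold change -1.22, SE 0.385, adjusted p = 0.0220). That call ended without control library 1 or 2 or TgAPPswe library 1 or 3 (adjusted p 0.0539 to 0.0834). By the adjusted p alone Naip5 and Naip6 were lower too (log2 fold changes -0.66 and -0.75) and Naip2 was higher (0.45). The lower genes of this list were thus Birc5, Naip1, Naip5 and Naip6. Naip2, Naip5 and Naip6 were named after their values were seen.

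Of 11 genes of death and TNF receptors, their adaptors and necroptosis, 4 rose and 5 more were higher by the adjusted p alone. The 2 that did not pass were Tnfrsf1a and Fadd (log2 fold changes -0.09 and -0.22). None was called down by edgeR, DESeq2 or limma. At an unadjusted p under 0.05, 0 were lower by edgeR and DESeq2 and 2 by limma on log2 FPKM. Their median log2 fold change was 0.75. Fas, the receptor of Fas ligand, rose from 2.51 ± 0.512 to 10.5 ± 1.41 FPKM (log2 fold change 2.30, SE 0.185, adjusted p = 1.1e-05). Tnfrsf1b, a receptor of TNF, rose from 76.2 ± 3.04 to 190 ± 6.95 FPKM (log2 fold change 1.54, SE 0.0637, adjusted p = 3.1e-07). Traf1, an adaptor of TNF receptors, rose from 4.05 ± 0.721 to 18.95 ± 7.15 FPKM (log2 fold change 2.27, SE 0.277, adjusted p = 1.3e-04). Mlkl, the executioner of necroptosis, rose from 6.23 ± 0.630 to 20.9 ± 1.49 FPKM (log2 fold change 1.98, SE 0.0864, adjusted p = 4.0e-07).

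Of 11 NF-kB subunits and inhibitors, 5 rose, 3 more were higher and 2 lower by the adjusted p alone, and 1 did not pass, with a median log2 fold change of 0.71. Nfkbiz, a nuclear co-regulator of NF-kB, rose from 19.2 ± 3.20 to 232 ± 26.3 FPKM (log2 fold change 3.81, SE 0.148, adjusted p = 2.2e-07). Nfkbia, the inhibitor that holds NF-kB in the cytoplasm and is itself a target, rose from 93.5 ± 3.65 to 348 ± 59.7 FPKM (log2 fold change 2.11, SE 0.129, adjusted p = 2.4e-06). Tnfaip3 (A20), a feedback inhibitor, rose with a log2 fold change of 2.32 (SE 0.102, adjusted p = 4.1e-07), and Bcl3, a member of the inhibitor family, with one of 1.53 (SE 0.0585, adjusted p = 2.1e-07). Nfkb2, which encodes a subunit, passed narrowly (log2 fold change 1.02, SE 0.103, adjusted p = 4.2e-05). Its log2 fold change was 0.99 without control library 3 and 0.90 without TgAPPswe library 1. Of the other subunits, Rel and Relb were higher (log2 fold changes 0.71 and 0.69) and Rela lower (-0.17) by the adjusted p alone. Nfkb1 did not pass (-0.0041). Of the other inhibitors, Nfkbib was higher (0.67) and Nfkbie lower (-0.55) by the adjusted p alone. Genes not called were named after their values were seen.

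Of 14 regulators of BH3-only transcription, 13 were tested, and 1 rose, 1 fell, 4 and 6 passed by the adjusted p alone, and 1 did not pass. Their median log2 fold change was -0.28. Foxo4, of the forkhead family, fell from 13.9 ± 0.610 to 5.10 ± 0.199 FPKM (log2 fold change -1.22, SE 0.0752, adjusted p = 2.6e-06). By the adjusted p alone Ddit3 was higher (log2 fold change 0.90, SE 0.0769, edgeR adjusted p = 1.6e-05). Trp53 was lower (-0.30, SE 0.0569, edgeR adjusted p = 0.00182). Ddit3 and Trp53 were named after their values were seen. Trib3, a stress-induced pseudokinase, was called up (log2 fold change 1.32, SE 0.346, adjusted p = 0.00937), and its log2 fold change was 0.98 without control library 2.

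Of 11 genes of Mcl1 and Bim protein turnover, 0 passed both thresholds by edgeR, DESeq2 or limma. By edgeR's adjusted p alone 7 were higher and 2 lower, the same numbers as at an unadjusted p under 0.05 by edgeR or DESeq2, and their median log2 fold change was 0.24. By limma on log2 FPKM, 3 were higher and 3 lower at an unadjusted p under 0.05. The largest changes were those of Usp9x, a deubiquitinase of Mcl1 (log2 fold change 0.55, SE 0.0796, adjusted p = 3.5e-04), and of Ube2k, a ubiquitin-conjugating enzyme (0.55, SE 0.0555, adjusted p = 4.3e-05). Over all 7 lists 87 genes were tested, of which 15 were called up and 7 down, to be set beside the 8.90% and 9.20% of all tested genes given above.

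Genes around the Bcl2a1 copies were examined next, within 1 Mb on either side of the 485 kb that the 3 copies span in RefSeq. Of 20 other genes of the table in this stretch, 16 were tested. 7 rose and 1 fell, where the background over all tested genes was 8.90% up and 9.20% down. Of these 7, Gm10634, LOC105245043, Trim43b and Rasgrf1 had at most 9 counts in any control library. They passed the count filter through the TgAPPswe libraries alone, so nothing is read from the count of 7. A further 2 were higher and 2 lower by the adjusted p alone, and 4 did not pass, with a median log2 fold change of 0.50. Rasgrf1, a nucleotide exchange factor of Ras, had 0.07, 0.14 and 0.05 FPKM in control and 8.12, 6.65 and 7.02 FPKM in TgAPPswe libraries (log2 fold change 6.41, SE 0.237, edgeR adjusted p = 1.9e-07). Mthfs, the gene next to Bcl2a1b, which encodes an enzyme of folate metabolism, fell from 35.6 to 11.1 FPKM on average (log2 fold change -1.46, SE 0.122, edgeR adjusted p = 1.4e-05).

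Several of these genes share reads, as the Bcl2a1 copies do, and are not independent of each other. The estimated counts of Mthfs and Mthfsl, which lies beyond Bcl2a1d, added up to whole numbers in all 6 libraries. Their sum was 1114 to 1204 counts in control and 492 to 567 counts in TgAPPswe libraries (log2 fold change -1.04, SE 0.0701, edgeR adjusted p = 4.1e-06). The same held for Gm10634, an annotated gene that spans Bcl2a1d, and LOC105245043, which lies between Bcl2a1d and Bcl2a1a. LOC105245043 had 2 counts in each control library and 107 to 155 counts in TgAPPswe libraries, Gm10634 had 0 to 2 and 15.2 to 16.6 counts, and their sum 2 to 4 and 124 to 170 counts.

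Trim43a, Trim43b and Trim43c likewise added up to whole numbers. Trim43b, between Bcl2a1a and Bcl2a1b, had 2 to 5.85 and 22.7 to 34.4 counts, and Trim43c, between Bcl2a1d and Bcl2a1a, had 7 to 14.2 and 6.24 to 11.6 counts, which overlapped and were too few to be tested. The sum of the 3 Trim43 genes was 10 to 21 counts in control and 30 to 47 counts in TgAPPswe libraries (log2 fold change 1.47, SE 0.329, edgeR adjusted p = 0.00424). These sums were chosen after the counts were seen. On the side of Bcl2a1b, farther out than Mthfs, Tmed3, Adamts7 and Tbc1d2b rose with log2 fold changes of 1.04, 1.33 and 1.13 (SE 0.0597, 0.310 and 0.0796, edgeR adjusted p = 1.8e-06, 0.00513 and 5.2e-06). The genes of this stretch were named after their values were seen.

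**Figure D5:**
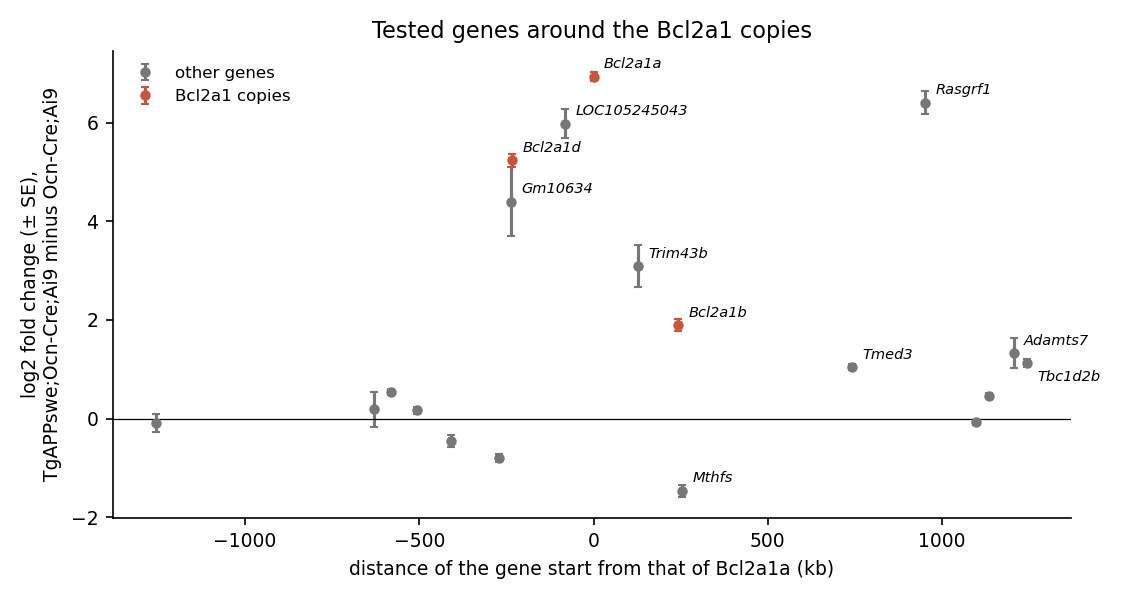
Log2 fold change (TgAPPswe minus control, ± SE) of the 19 tested genes within 1 Mb of the Bcl2a1 copies, against the distance of each gene's start from that of Bcl2a1a in kb. The 3 copies (red) stand at 6.94, 5.24 and 1.89, genes called in either direction are named, and the fitted values of Gm10634 and LOC105245043 rest on 0 to 2 counts in the control libraries.

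The tested genes outside the family most like the Bcl2a1 sum over the 6 libraries, by Pearson's r of log2 CPM, were Slc15a3 (0.9998), Ppp3cc (0.9998), Mapre1 (0.9997), Opa3 (0.9997) and Gch1 (0.9997). The libraries form 1 cluster per genotype, so such values were common, and 713 of 12691 genes (5.62%) had an r of at least 0.99. The log2 fold changes of these 5 genes ran from 0.70 for Mapre1 to 3.11 for Gch1, so that likeness in this measure did not mean a like size of change.

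Since A1 is a gene of blood cells, cell markers are given beside it. Of the 15 macrophage markers 4 rose and 4 fell, against 8.90% and 9.20% of all tested genes. A further 5 (C1qa, C1qb, C1qc, Tyrobp and Ctss) were lower by the adjusted p alone, with log2 fold changes from -0.54 to -0.41, and 2 did not pass, so that 9 were lower and 4 higher by edgeR's adjusted p. Adgre1, which encodes F4/80, rose from 563 to 1776 FPKM on average, and Aif1, Fcgr1 and Itgam rose as well, while Csf1r fell from 1214 to 370 FPKM and Mrc1 from 208 to 34.4 FPKM, with Cd68 and Mertk. The 15 neutrophil markers summed to 65.6 to 128 FPKM in control and 476 to 1033 FPKM in TgAPPswe libraries, and 3 of the 13 tested rose (Lcn2, Mmp9 and Camp), with 1 more higher by the adjusted p alone. Without Lcn2 and Mmp9, left out after their values were seen, the sum was 60.6 to 117 and 74.7 to 102 FPKM. Ly6g, a defining neutrophil marker, had at most 1 count in any library. Camp had 1 to 9 counts in control and 21 to 54 in TgAPPswe libraries, and passed the count filter through the TgAPPswe libraries alone.

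Of the B cell markers, 5 summed to 1.99 to 3.01 FPKM in control and 4.07 to 4.73 FPKM in TgAPPswe libraries. Cd79b, which encodes a chain of the B cell receptor, rose among them from 1.18 ± 0.261 to 3.44 ± 0.268 FPKM (log2 fold change 1.75, SE 0.212, edgeR adjusted p = 1.3e-04), while Cd79a, Ms4a1 and Pax5 had at most 4 counts in any library. Ebf1, which stromal cells also express, had 0.87 to 1.74 FPKM in control and 0.49 to 1.03 FPKM in TgAPPswe libraries, which overlapped (log2 fold change -0.54, SE 0.307, edgeR adjusted p = 0.154). T and NK cell markers (6 of 7 in the table) summed to 3.80 to 4.66 FPKM in control and 1 to 2.56 FPKM in TgAPPswe libraries. Cd4 was called down among them (log2 fold change -1.31, SE 0.325, edgeR adjusted p = 0.00717). Mast cell markers (3 of 6) summed to 0.05 to 0.29 and 0.19 to 0.24 FPKM. The 7 dendritic cell markers summed to 16.6 to 41.5 and 8.21 to 18.9 FPKM, mostly Itgax, which did not pass (log2 fold change -0.97, SE 0.378, edgeR adjusted p = 0.0507). Xcr1 was called up among them, from 0.143 to 0.457 FPKM on average (log2 fold change 1.88, SE 0.230, edgeR adjusted p = 1.3e-04). The 4 of 6 megakaryocyte and erythroid markers in the table summed to 524 to 635 and 115 to 265 FPKM, nearly all of it Pf4, which macrophages also express. The part of any shift in cell make-up in the difference of the Bcl2a1 copies was not tested.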

How the data were processed

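Estimated counts and FPKM of 17469 genes in 6 libraries were analysed. Per the labels, tdTomato+ BMSCs were sorted by FACS and libraries were prepared for DNBSEQ. The submitters' processing notes name HISAT2 2.0.4, Bowtie2 2.2.5, RSEM 1.2.12, DESeq2 1.4.5 and the build mm10. The authors removed rRNA and low-quality reads, aligned the rest and deposited an estimated count per gene and library, fractional for 13.3% to 14.4% of genes. Beside it stand FPKM values, which the authors scaled by gene length and library size and deposited with 2 decimals. A further deposited table of log ratios and p-values holds the authors' own comparison and was not used. Read length and strandedness are not given in the sources used here.

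The test had been planned on raw counts. Estimated counts were rounded and tested by the quasi-likelihood method of edgeR 4.0.16 under R 4.3.3, after filterByExpr and TMM, with no covariate and Benjamini-Hochberg adjustment over all tested genes. A call needed an adjusted p of 0.05 or less and a log2 fold change beyond 1 or -1. Standard errors of the edgeR fits are the absolute log2 fold change divided by the square root of the F statistic of that test. They can be too small where 1 genotype has few counts. For Bcl2a1a the value was 0.0936, and DESeq2 gave 0.200. Uncertainty in dividing reads among the copies is not part of them. The Bcl2a1 sum replaced its 3 rows in a second fit. The biological coefficient of variation was 9.85%. Alternatives were DESeq2 1.42.0, RLE size factors, library size only, other count filters, a replicate block, limma 3.58.1 on log2(FPKM + 1) or log2(FPKM + 0.1), no fold threshold and leaving out each library. The procedure was tested on simulated data.

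The members and lists were chosen with earlier results of these data known. Named genes are the members, each list's called genes (up to 6 by size, or its 2 largest where none was called) and the 5 genes most correlated with the Bcl2a1 sum by log2 CPM with a prior count of 2. Sequences and positions came from GENCODE M21 and RefSeq. Tables were made in Python 3.11.15 (numpy 2.4.6, pandas 2.3.3, Biopython 1.88) and plots with matplotlib 3.10.9. Protein sequences were not used here. Of the B cell markers 1 is not reported here.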

Additional observations from a re-analysis of the deposited data

How the results depend on the processing

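The difference of the Bcl2a1 sum kept its direction under every alternative run. Its log2 fold change of 2.72 was 2.51 with library size only, 2.49 with limma on log2(FPKM + 0.1) and 2.48 with limma on log2(FPKM + 1), with or without the filter on low values, and 2.61 to 2.84 when 1 library was left out. Library size only, in place of TMM, moved the median over all tested genes, on the log2 scale, from -0.02 to -0.23, and each member moved down with it. Bcl2l1 went from 0.36 to 0.15 and Bcl2 from -0.87 to -1.08, past the threshold of -1. The log2 ratio of the summed FPKM of Bcl2, Bcl2l1 and Mcl1, -0.22, was -0.0033 after TMM scaling of FPKM, an alternative chosen after seeing the data. Fitted as sums with the genes they share reads with, chosen after seeing the data, Mthfs went from -1.46 to -1.04, Mthfsl from -0.80 to -1.04, past the threshold of -1, and Trim43b from 3.09 to 1.47, while Gm10634 went from 4.40 and LOC105245043 from 5.98 to 5.76, fitted values that rest on at most 4 counts in a control library. Bcl2a1a, low in control, was 5.99 on the log2(FPKM + 1) scale. Genes called up numbered 593 with limma on log2(FPKM + 1) and 589 without its filter. Without the fold threshold 4122 genes were called up, 4007 down and 76 of the pathway genes. Among the named pathway genes Bik, Bok, Dffb, Naip1, Nfkb2 and Trib3 lost their call under at least 1 alternative, and none changed direction. With 1 library left out, 1103 to 1150 genes were called up, 1125 to 1262 down and 19 to 22 of the pathway genes.

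Correlations of deviations were 0.013, 0.007 and 0.141 for libraries with like replicate numbers and -0.052 to 0.025 for those with unlike numbers. With 3 libraries per genotype these values cannot decide whether the numbers pair the libraries. With the replicate block the Bcl2a1 sum was 2.73, and 1115 genes were called up, 1147 down and 22 of the pathway genes. The division of reads among the Bcl2a1 copies was made by the authors and could not be redone from these files.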
